A study of Mus musculus with 6 samples.

Results

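A set of 10 genes of fatty acid synthesis and desaturation was followed in TM4 cells, a line established from mouse testis that serves as a stand-in for Sertoli cells, which surround and nourish developing germ cells. The genes were chosen by gene symbol as enzymes of the pathway, with earlier results of these data known. They were found as 10 of the 55414 Ensembl genes in the deposited table. RNA sequencing compared 3 libraries of cells labelled VC with 3 libraries of cells labelled control. The titles of the VC samples give the agent only as VC, which can be read as vitamin C. Valine is named in a characteristic of the same samples and in the design text. The agent therefore cannot be told from the labels, and neither a dose nor an exposure time was given. All 6 libraries came from the 1 cell line, and nothing in the labels says that replicates were separate cultures. The p-values below are therefore set against the scatter of these 6 samples alone, and that scatter may be technical. In RNA from bulk cells, a change in all cells and a change in some of them cannot be told apart.

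Fatty acids are built in the cytosol from acetyl-CoA, which ATP citrate lyase makes from citrate and acetyl-CoA synthetase makes from acetate. Acetyl-CoA carboxylase turns acetyl-CoA into malonyl-CoA, fatty acid synthase assembles palmitate from both, elongases lengthen the chain, and desaturases put double bonds into it. Most of these genes are known targets of the sterol regulatory element-binding proteins (SREBPs) and of the liver X receptors. SREBPs are transcription factors held in the endoplasmic reticulum, which they leave to be cut free when membrane sterol is low. Sertoli cells contain lipid droplets, and those of the rat are known to elongate and desaturate essential fatty acids.

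The promoter windows of the enzymes are shown first, as background. Whether their sequence bears on the values below was not tested. RefSeq windows on build GRCm38.p6, from 250 bases before to 50 bases after the start site, were at hand for 7 of the 10 genes (Acly, Acss2, Acaca, Fasn, Elovl5, Elovl6 and Fads2). The 4 printed belong to the entry enzyme Acly, to the synthase Fasn, and to both elongases, of which Elovl6 had the largest difference of the 10 and Elovl5 overlapped between groups. Capitals mark matches on either strand to 5 motifs, namely the sterol regulatory element consensus TCACNCCAC, the shorter sterol element core ATCACCC, the CCAAT box, the GC box GGGCGG and the E-box CACGTG, of which the core was added after the Fasn window was seen.
Acly, chr11:100527951-100528250, minus strand: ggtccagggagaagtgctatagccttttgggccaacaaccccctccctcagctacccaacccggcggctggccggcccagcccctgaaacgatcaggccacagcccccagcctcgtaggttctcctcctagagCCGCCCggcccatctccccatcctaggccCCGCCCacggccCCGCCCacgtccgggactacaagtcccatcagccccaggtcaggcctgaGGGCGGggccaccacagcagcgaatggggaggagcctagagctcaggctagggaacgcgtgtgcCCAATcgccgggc
Fasn, chr11:120824498-120824797, minus strand: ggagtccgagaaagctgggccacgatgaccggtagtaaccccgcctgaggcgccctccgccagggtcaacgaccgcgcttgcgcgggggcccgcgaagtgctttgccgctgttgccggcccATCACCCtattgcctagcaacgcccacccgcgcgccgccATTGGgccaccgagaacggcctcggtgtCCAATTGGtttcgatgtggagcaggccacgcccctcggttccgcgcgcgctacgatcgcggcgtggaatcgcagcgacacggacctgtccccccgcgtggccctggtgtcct
Elovl6, chr3:129532136-129532435, plus strand: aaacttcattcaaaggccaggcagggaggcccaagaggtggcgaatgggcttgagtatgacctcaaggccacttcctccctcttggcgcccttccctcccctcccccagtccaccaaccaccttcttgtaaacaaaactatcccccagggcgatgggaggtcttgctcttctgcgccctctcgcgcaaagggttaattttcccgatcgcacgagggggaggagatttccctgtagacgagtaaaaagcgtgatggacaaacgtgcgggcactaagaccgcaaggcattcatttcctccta
Elovl5, chr9:77917115-77917414, plus strand: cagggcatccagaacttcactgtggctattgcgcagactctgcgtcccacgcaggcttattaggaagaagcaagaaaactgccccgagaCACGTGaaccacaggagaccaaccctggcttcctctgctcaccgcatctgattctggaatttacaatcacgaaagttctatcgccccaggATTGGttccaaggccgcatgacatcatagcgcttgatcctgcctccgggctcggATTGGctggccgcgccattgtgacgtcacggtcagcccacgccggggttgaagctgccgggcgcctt

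The consensus TCACNCCAC was in none of the 7 windows and in 1.24% of all 32851 promoter windows in the table. The core ATCACCC was in the Fasn window, starting 129 bases before the start site, and in no other of the 7. It was in 2.69% of all windows. Since the core was added after the Fasn window was seen, that match was fixed in advance. The share therefore does not measure how unusual the match is. The Fasn window also held 3 CCAAT boxes, 2 of which overlap on opposite strands, while the box was in 37.4% of all windows. Acly held 4 GC boxes and 1 CCAAT box, and 35.7% of all windows held at least 1 GC box. Elovl5 held 2 CCAAT boxes and 1 E-box, a motif in 7.15% of all windows. None of the 5 motifs was in the Elovl6 window, which says only that these letters are not there. Of the windows not printed, Acss2, whose values overlapped between groups, held 5 GC boxes and 1 CCAAT box. Fads2 held 1 GC box, and Acaca held none of the 5 motifs. Each window covers only the listed start site of its gene, so motifs at other start sites or farther away were not searched. Matches were thus found in genes with and without overlap between groups.

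Expression is given as the deposited value, a transcripts-per-million-like value per gene multiplied by 1 factor per library. Levels can be compared between genes only per annotated exon length. That length takes in the exons of all transcripts of a gene and can exceed the transcript expressed. A log2 fold change is the VC mean less the control mean of log2(value + 1), a scale on which changes of low genes come out too small, and each gene was tested in limma with Benjamini-Hochberg adjustment over all 13972 genes that reached a value of 1 in at least 3 libraries. All 10 enzymes passed that filter. The libraries held between 20408425 and 22316857 recovered reads, and control replicate 3 stood apart from the other 5 libraries. Compared with any other library its reads gave a chi-square per degree of freedom of 8.76 to 15.6, and 2.65 to 6.69 for pairs without it. Of 16 Sertoli markers, 8 passed the filter and 4 were at 0 in every library. Gata4, a gonadal transcription factor, was at 21.4 to 22.3 in VC and 18.6 to 19.8 in control. Wt1, which Sertoli cells need for their identity, was listed at 0 in every library, so the Sertoli label holds for part of its markers only. The filter was also passed by 2 of 8 macrophage, 1 of 7 Leydig, 2 of 11 germ cell and 3 of 8 endothelial markers. Of 10 adipocyte markers, cells in which these enzymes are abundant, none passed the filter, 3 were at 0 in every library, and their summed value was 0.689 to 0.822 in VC and 0.356 to 1.17 in control.

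Fads1, the delta-5 desaturase of polyunsaturated fatty acids, rose in VC, and it was the only one of the 10 enzymes to pass the threshold. In 8 of the 10 genes (Acly, Acaca, Fasn, Elovl6, Scd1, Scd2, Fads1 and Fads2) all 3 VC values lay above all 3 control values, by 9.75% to 26.8% in the group means. The other 2, Elovl5 and Acss2, overlapped between groups. Over all tested genes, 13.9% had VC values wholly above control and 11.6% wholly below. The count of 1 of 10 past the threshold stands against 0.429% of tested genes called higher, and 0 of 10 stands against 0.258% called lower. At an unadjusted limma p under 0.05 8 of the 10 enzymes were higher, the same 8 that did not overlap, beside 9.05% of all tested genes higher at that p. The median log2 fold change of the 10 was 0.23, beside 0.012 for all tested genes, and the 9 positive values among them stand beside 7505 of 13972. Because the enzymes were chosen with earlier results of these data known, these counts and shares describe the set and do not test it.

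**Figure D1:**
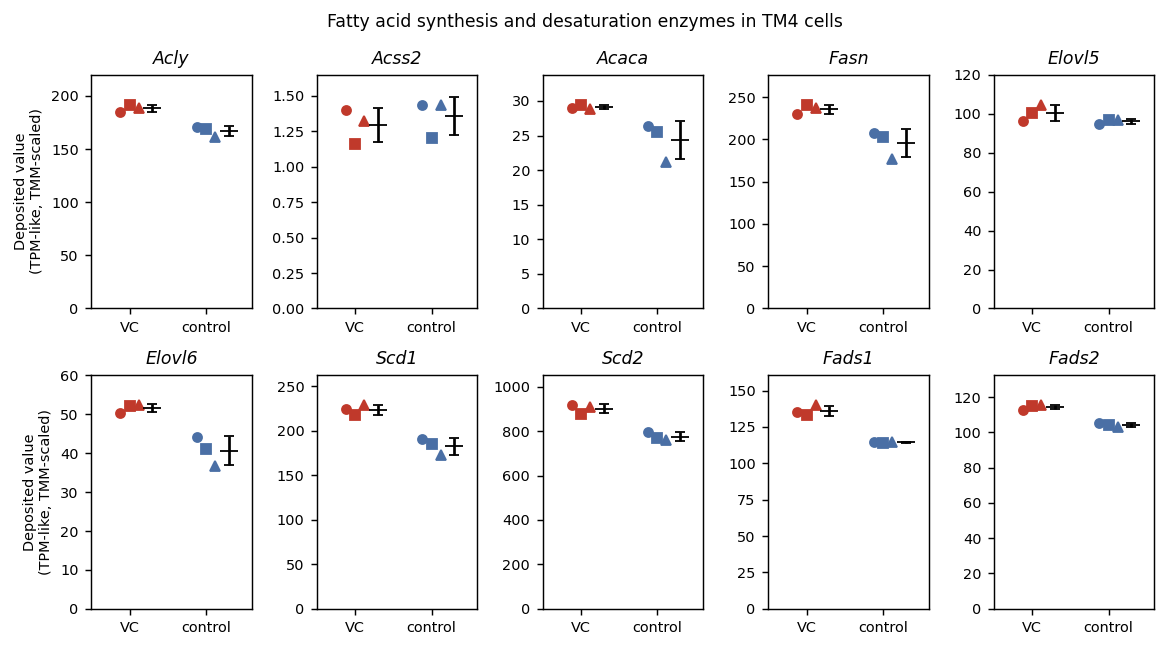
Deposited value (TPM-like, TMM-scaled, axes from 0) of each enzyme in 3 VC libraries (red, left) and 3 control libraries (blue, right); circle, square and triangle are replicates 1, 2 and 3, and the bar is the mean ± SD. Red points lie above blue points in 8 panels and overlap them for Acss2 and Elovl5; the control triangle is the lowest control in 7 panels.

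The levels of the enzymes spread widely. Scd2 was by far the most abundant, ranked 159 of 13972 tested genes by mean value, and made up 44.8% to 46.3% of the summed value of the 10 in VC libraries and 45.0% to 46.2% in control libraries. In control cells the order then ran Fasn, Scd1, Acly, Fads1, Fads2, Elovl5, Elovl6, Acaca and Acss2, and Fasn and Scd1 were the one pair of neighbours whose values overlapped. The order by mean was the same in VC cells, where no neighbours overlapped. The order depends on the annotated exon length. With 2999 to 4060 recovered reads per library, Acaca had more reads than Elovl6 (1964 to 2709) but a lower value. The summed value of the 10 was 1980, 1959 and 2005 in VC libraries, against 1754, 1708 and 1646 in control libraries.

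Of the suppliers of acetyl-CoA, Acly was abundant and Acss2 low. Acly, the ATP citrate lyase, had values of 184.6, 191.4 and 188.5 in VC, against 170.8, 168.9 and 161.7 in control. The groups did not overlap, and the log2 fold change was 0.17 (SE 0.035, limma adjusted p = 0.0864), short of the threshold. Acss2, the cytosolic acetyl-CoA synthetase that uses acetate, was at 1.40, 1.16 and 1.32 in VC and at 1.44, 1.20 and 1.43 in control. This low gene rested on 91 to 121 recovered reads per library, its groups overlapped, and the 95% interval of its log2 fold change ran from -0.38 to 0.31 (limma adjusted p = 0.923). Parts of its exons also lie on those of the neighbours Gss, Ggt7 and Acss2os on the opposite strand, 3.89%, 1.94% and 3.30% of its exon length, and the labels do not say that strand was kept.

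Both enzymes of palmitate synthesis were higher in every VC library than in any control library. Fasn, the fatty acid synthase, was at 229.8, 240.6 and 236.8 in VC, against 208.1, 202.9 and 176.6 in control. Its log2 fold change was 0.27 (SE 0.064, limma adjusted p = 0.114). Acaca, the cytosolic acetyl-CoA carboxylase that commits acetyl-CoA to synthesis, was at 29.0, 29.4 and 28.9 in VC, against 26.4, 25.5 and 21.2 in control, for a log2 difference of 0.25 and an SE of 0.081 (limma adjusted p = 0.192). In both genes the lowest control was replicate 3. Without it the log2 fold change was 0.20 for Fasn and 0.16 for Acaca, with limma adjusted p of 0.0676 and 0.123. Acaca is uncertain for a second reason, since 30.4% of the 50-base sequences of its transcripts are also found in other genes, nearly all in the predicted gene Gm5182. That gene had values of 15.1, 16.5 and 16.9 in VC and 15.7, 16.7 and 13.2 in control, which overlapped, and the sources used here do not say how shared reads were assigned.

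The elongases parted. Elovl6, which lengthens palmitate to stearate, was at 50.3, 52.1 and 52.3 in VC, against 44.1, 41.1 and 36.8 in control. It had the largest log2 fold change of the 10, 0.34 (SE 0.066, limma adjusted p = 0.0785), and 0.27 without control replicate 3 (adjusted p = 0.0694). Elovl5, which lengthens polyunsaturated chains, was at 96.3, 100.6 and 104.5 in VC and at 94.7, 96.8 and 97.0 in control. VC replicate 1 lay inside the control range, and the 95% interval of the log2 fold change ran from -0.032 to 0.155 (limma adjusted p = 0.470). The ratio of Elovl6 to Elovl5 within a library, which no scaling of libraries can alter, was 0.523, 0.518 and 0.501 in VC, against 0.465, 0.425 and 0.379 in control. The ratios did not overlap (exact permutation test, two-sided, p = 0.1, the smallest that 3 against 3 libraries allow, and 0.167 adjusted over 5 ratios).

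The stearoyl-CoA desaturases, which make oleate and palmitoleate from saturated chains, were both higher in every VC library. Scd1, the isoform best known from liver and fat, was at 224.2, 217.5 and 228.8 in VC, against 190.6, 185.3 and 172.4 in control. Its log2 fold change was 0.29 (SE 0.045, limma adjusted p = 0.0538). Scd2, the isoform best known from brain and developing tissues, was at 916.5, 878.5 and 909.2 in VC, against 798.6, 767.8 and 761.2 in control, for a log2 difference of 0.22 and an SE of 0.036 (limma adjusted p = 0.0555). Both missed the threshold narrowly. Scd1 passed without control replicate 3 (adjusted p = 0.0482), and both passed with libraries scaled to equal totals, a setting that also moved the median of all genes to 0.078. Of the 50-base sequences of Scd1 transcripts, 4.56% are also found in other genes, as are 3.97% of those of Scd2, mostly within the Scd family. Scd3 and Scd4, the other mouse family members, reached at most 0.319 and 0.583 in any library. The ratio of Scd1 to Scd2 was 0.245, 0.248 and 0.252 in VC, against 0.239, 0.241 and 0.226 in control. These ratios again did not overlap (exact permutation test, two-sided, p = 0.1, the smallest possible, 0.167 adjusted over 5 ratios). Control replicate 3 again gave the lowest ratio. There Scd1 differed by -0.12 from the mean of controls 1 and 2 on the log2 scale, and Scd2 by -0.041.

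The front-end desaturases work in turn on polyunsaturated chains, Fads2 as the delta-6 and Fads1 as the delta-5 enzyme on the way to arachidonate. Fads1 was at 135.2, 133.2 and 139.8 in VC, against 114.3, 114.1 and 114.9 in control. The control values lay within 1 unit of each other, replicate 3 included, and Fads1 rose by 0.25 on the log2 scale (SE 0.032, limma adjusted p = 0.0348). Fads2 was at 112.9, 114.8 and 115.3 in VC, against 105.3, 104.1 and 103.1 in control, with no overlap and a log2 fold change of 0.13, with an SE of 0.030 (limma adjusted p = 0.103). The ratio of Fads1 to Fads2 was 1.20, 1.16 and 1.21 in VC, against 1.09, 1.10 and 1.11 in control. The exact permutation test, two-sided, gave p = 0.1, the smallest possible, and 0.167 adjusted over 5 ratios. Here control replicate 3 gave the highest control ratio. Of the remaining role pairs, the ratio of Fasn to Acaca was 8.10 ± 0.147 in VC and 8.06 ± 0.249 in control (SD, n = 3 each; exact permutation p = 0.9). That of Acly to Acss2 was 146.4 ± 16.8 in VC and 124.1 ± 14.7 in control (SD, n = 3 each; exact permutation p = 0.2).

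**Figure D2:**
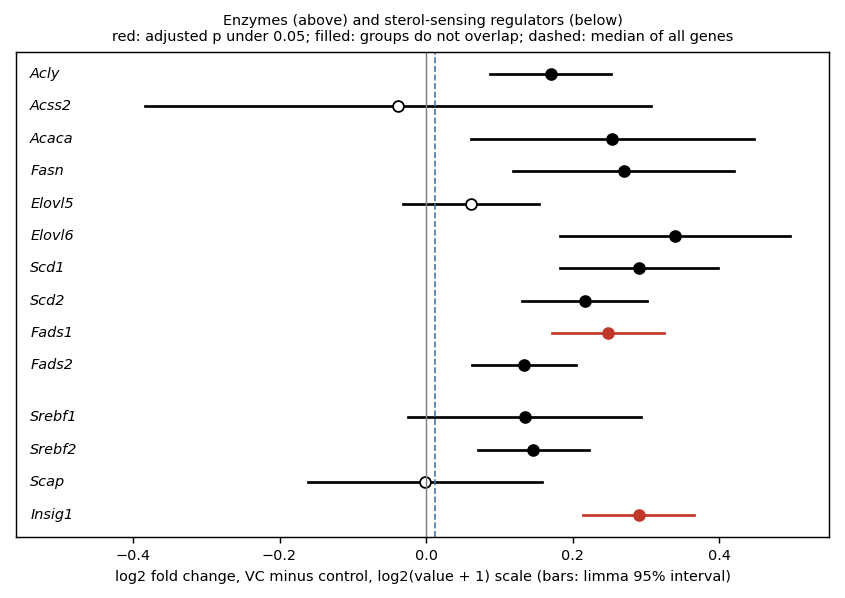
Log2 fold change of each enzyme and of 4 regulators, VC minus control, with limma's 95% interval as a bar; red marks an adjusted p under 0.05, filled points mark groups that do not overlap, and the dashed line is the median of all tested genes (0.012). Fads1 and Insig1 are red, and the intervals of Acss2, Elovl5, Srebf1 and Scap reach across 0.

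The call of Fads1 depended on the libraries and the fit. It was lost without each of control replicates 1 and 2 and VC replicates 1, 2 and 3 (limma adjusted p of 0.107 to 0.171) and without a filter on low genes (adjusted p = 0.0581), and it was kept without control replicate 3 (adjusted p = 0.0476). Its log2 fold change stayed between 0.23 and 0.32 over the 15 alternatives. A limma-voom fit of recovered reads called 7 of the 10 enzymes higher (all but Acss2, Elovl5 and Fads2), beside 2.48% of the genes in that fit called higher.

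Control replicate 3 and gene length moved with the values of the enzymes. Control 3 was the lowest control in 7 of the 10 enzymes, beside 38.6% of all tested genes. Relative to the mean of controls 1 and 2 on the log2(value + 1) scale, Acaca differed by -0.28 in control 3, Fasn by -0.22 and Elovl6 by -0.21, while Fads1 differed by 0.0085. Across all tested genes this difference had a median of 0.093 in the shortest of 4 groups of like size by exon length and -0.098 in the longest. The enzymes are long genes, with a median exon length of 5372 bases beside 3627 for all tested genes, and 4 of them (Acaca, Fasn, Acss2 and Elovl6) were in the longest group, where 23.9% of genes had VC values wholly above control. Without control 3, 8 of 10 enzymes again lay wholly above the controls, beside 20.0% of tested genes, and their median log2 fold change was 0.18. With each library's trend with exon length removed, the median was 0.17, and 5 of 10 enzymes (Fasn, Elovl6, Scd1, Scd2 and Fads1) passed the threshold, beside 0.995% of the genes in that fit called higher and 253 genes called in all, against 96 as reported.

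**Figure D3:**
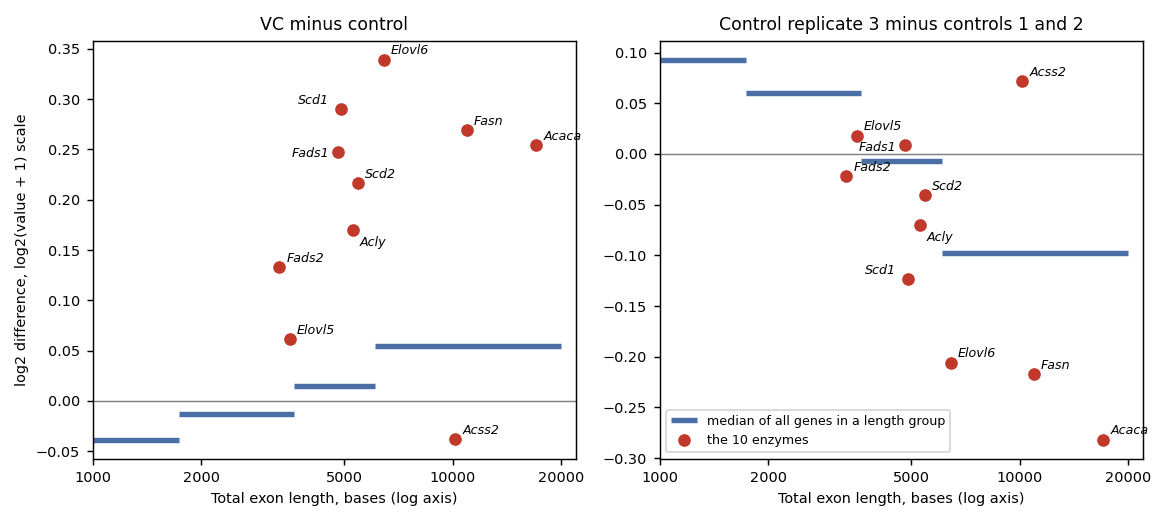
Log2 difference of each enzyme (red) against its total exon length in bases (log axis), with the median of all tested genes in each of 4 length groups in blue: left, VC minus control; right, control replicate 3 minus the mean of controls 1 and 2. On the left 9 enzymes lie above the blue line of their length group; on the right Acaca, Fasn and Elovl6 lie lowest, at -0.28 to -0.21.

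Of the regulators of the pathway, Insig1, which holds SREBPs in the endoplasmic reticulum and is itself a target of them, rose in VC. Its values were 101.5, 98.0 and 98.7 in VC, against 80.5, 82.2 and 80.7 in control, for a log2 difference of 0.29 and an SE of 0.032 (limma adjusted p = 0.0257). The call was lost without each library other than control replicate 3 (limma adjusted p of 0.0848 to 0.140). Srebf1, which encodes the SREBP most tied to fatty acid synthesis, was at 36.3, 36.6 and 41.9 in VC and 33.0, 35.0 and 36.2 in control (log2 fold change 0.13, SE 0.067, adjusted p = 0.357). Srebf2, the SREBP most tied to cholesterol, was at 158.1, 157.2 and 155.7 in VC and 141.4, 145.5 and 138.5 in control (0.15, SE 0.032, adjusted p = 0.0982). Scap, the escort of SREBPs, averaged 18.9 ± 1.58 in VC and 18.8 ± 0.639 in control (SD, n = 3 each; limma adjusted p = 0.994). Nr1h3, the liver X receptor alpha, stayed below 1 in every library. Its relative Nr1h2, the liver X receptor beta, named after its values were seen, was at 41.1, 40.5 and 41.5 in VC, against 36.2, 38.7 and 38.8 in control, without overlap and short of the threshold (log2 fold change 0.11, SE 0.042, limma adjusted p = 0.243). Mlxipl, the carbohydrate-responsive factor ChREBP, was listed at 0 in all 6 libraries. Of the 15 tested genes of this list, 1 rose, 0 fell and 14 did not pass, beside 0.429% of all tested genes called higher and 0.258% called lower.

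Elsewhere in the pathway few genes passed. None of the tested genes passed among 10 of citrate export and NADPH supply, 7 of the other elongases and the elongation cycle, 6 of the other desaturases and their electron donors, 8 of AMPK and malonyl-CoA control, 6 of mitochondrial fatty acid synthesis and 17 of glycerolipid assembly. At an unadjusted limma p under 0.05 these lists held 1, 0, 1, 0, 0 and 3 genes in that order, beside 2410 of all 13972 tested genes. With limma-voom on recovered reads 1 gene each was called higher in the first and the last, beside 2.48% of the genes in that fit. Their median log2 fold changes lay between -0.022 and 0.042. The gene with the smallest p in each list was Idh1, a cytosolic source of NADPH (log2 fold change 0.23, adjusted p = 0.0822), Hacd1, a dehydratase of the elongation cycle (-0.19, adjusted p = 0.412), Cyb5b, a cytochrome b5 (0.071, adjusted p = 0.279), Prkag1, an AMPK subunit (-0.13, adjusted p = 0.298), Acsf3, a mitochondrial malonyl-CoA synthetase (0.14, adjusted p = 0.461), and Agpat3, an acyltransferase (-0.20, adjusted p = 0.233), all by limma. Fads3, the neighbour of Fads1 and Fads2 in the same gene cluster, was at 77.6, 78.9 and 76.0 in VC and 76.6, 75.6 and 79.4 in control, with overlap. Acacb, the carboxylase isoform at the mitochondrial surface, was at 1.51, 1.39 and 1.57 in VC and 1.49, 1.78 and 1.31 in control, also with overlap.

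Genes of fatty acid oxidation, the opposite direction, had a median log2 fold change of 0.070 over 19 tested. Of these, 1 was called higher, a gene not reported here, and 0 lower, beside 0.429% and 0.258% of all tested genes. VC values lay wholly above control in 5 of the 19 and wholly below in 1, beside 13.9% and 11.6% of all tested genes. With limma-voom on recovered reads 3 were called higher, beside 2.48% of the genes in that fit. Cpt1a, the gate to mitochondrial oxidation that malonyl-CoA inhibits, was named after its values were seen. It was at 29.0, 28.5 and 30.2 in VC, against 24.6, 23.7 and 22.1 in control, short of the threshold (0.31, SE 0.053, limma adjusted p = 0.0603).

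The genes of cholesterol synthesis and LDL uptake, the other arm under SREBP control, were the list with a median nearest to that of the 10 enzymes. Of 22 tested, 6 rose (Acat2, Mvd, Idi1, Lss, Cyp51 and Msmo1), beside 0.429% of all tested genes, and 0 fell, beside 0.258%. VC values lay wholly above control in 20, beside 13.9% of all tested genes. That count was not taken again without control replicate 3 or by gene length. The median was 0.24, against 0.23 for the fatty acid enzymes. The 6 ranged from 0.33 (Msmo1, limma adjusted p = 0.0257) to 0.49 (Lss, limma adjusted p = 0.0189). All 6 calls were lost without each library other than control replicate 3 (limma adjusted p of 0.0538 to 0.140). A limma-voom fit of recovered reads called 16 of the 22 higher, beside 2.48% of the genes in that fit. The lists share the libraries and were not compared by a test.

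**Figure D4:**
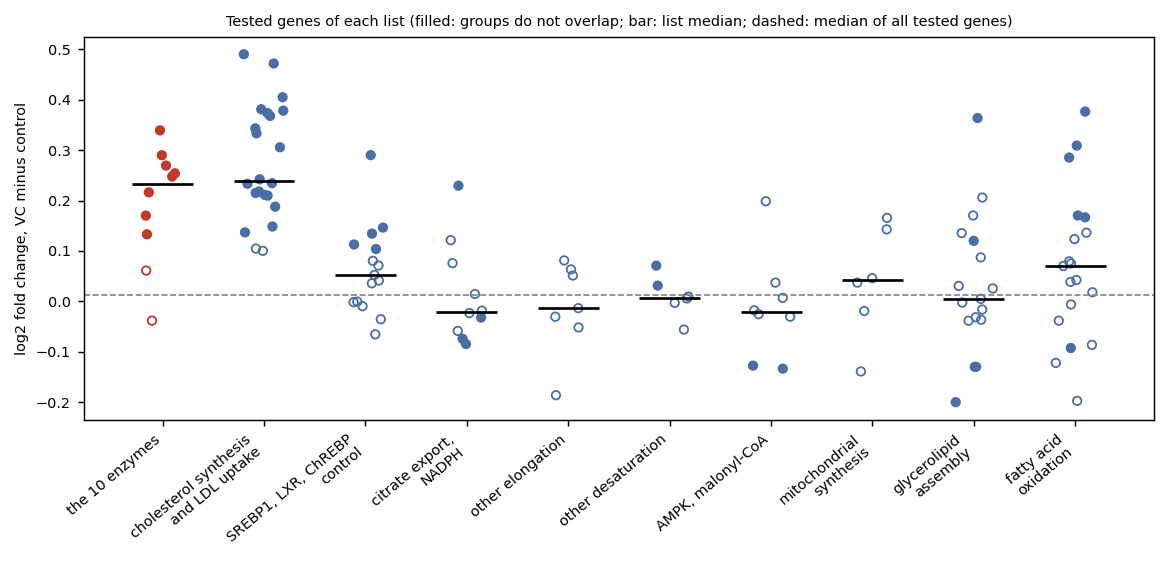
Log2 fold change, VC minus control, of the tested genes of each list, with the 10 enzymes in red and the 9 other lists in blue; filled points mark groups that do not overlap, black bars the list medians, and the dashed line the median of all tested genes. The medians of the 10 enzymes (0.23) and of cholesterol synthesis and LDL uptake (0.24) stand above those of the other 8 lists, which lie between -0.022 and 0.070.

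The sizes of the differences held to different degrees across settings. Elovl6 was the highest of the 10 under 14 of the 15 alternatives, with values between 0.27 and 0.41 over all 15, and Scd1 was highest after quantile normalization, at 0.35. Acaca ranged from 0.15 with the length trend removed to 0.32 with equal totals, and Acss2 from -0.10 to 0.0041.

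**Figure D5:**
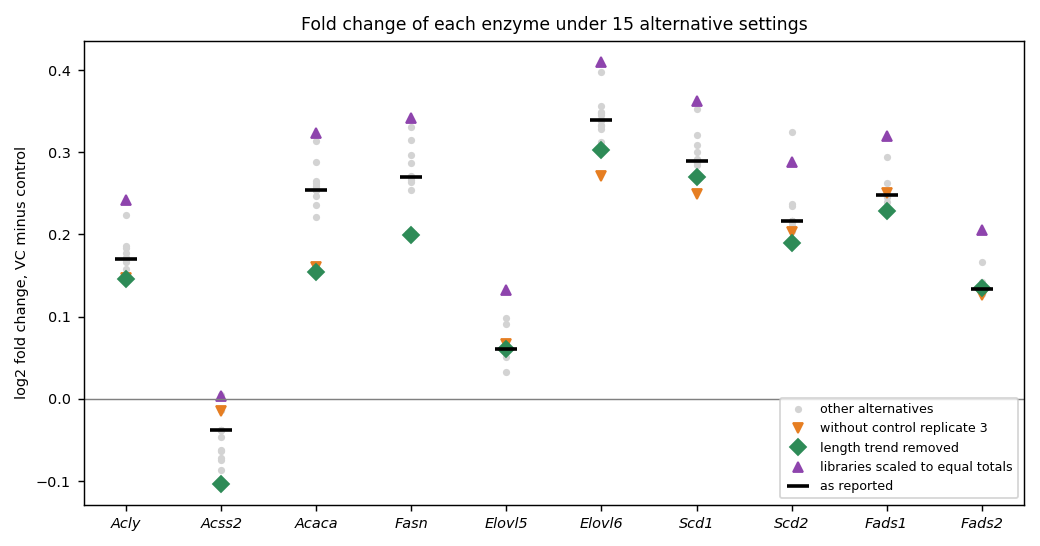
Log2 fold change of each enzyme, VC minus control, as reported (black bar) and under 15 alternatives, of which 3 are coloured. Acaca, Fasn and Elovl6 are lower without control replicate 3 (orange) than as reported, Fads1 hardly moves, and equal totals (purple) raises every enzyme.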

How the data were processed

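RNA was extracted with Trizol and sequenced from TruSeq libraries, per the labels' protocols, and aligned with HISAT2 to build GRCm39, as the submitters' processing notes have it; the counting tool and annotation were not given in the sources used here. Values are a non-negative signal that the authors deposited after TMM scaling, going by the name of the table; they look like TPM multiplied by 1 factor per library. Symbols and exon lengths of 52133 of 55414 genes came from GENCODE M21 (GRCm38), used for names and lengths only. Value times exon length gave whole multiples of 1 read in 98.7% to 98.9% of the values of up to 1000 reads, at a tolerance of 0.1 read; these recovered reads judge depth and feed 1 alternative.

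Log2(value + 1) was fitted in limma 3.58.1 (R 4.3.3; empirical Bayes with trend, two-sided, no block) over 13972 genes, with Benjamini-Hochberg adjustment at 0.05. The fit was tested on simulated data that had no outlying library and no trend with gene length. That test therefore does not cover these features of the libraries. Ratios used exact permutation in scipy 1.17.1. The enzymes and lists were chosen with earlier results of these data known. Genes named were the 10 enzymes, 6 regulators and, in each of 9 lists, those called or else the 1 with the smallest p; others named with values were chosen after these were seen, and 1 gene that the rule named is not reported here. No library pair agreed within sampling noise. Same-numbered libraries of the groups did not deviate together (r from -0.019 to 0.0051). Alternatives changed the pseudocount, filter, scaling, block, empirical Bayes, libraries, unit and length trend. Reads were not independent molecules, and the depth limits low genes such as Acss2.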

Additional observations from a re-analysis of the deposited data

How the results depend on the processing

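As reported, limma called 96 genes, 1 of them among the 10 enzymes, and the median log2 fold change of the enzymes was 0.23. Without a filter 30 genes and 0 enzymes were called. Equal totals gave 217 genes, 3 enzymes (Scd1, Scd2 and Fads1) and a median of 0.304, which includes the shift of all genes to 0.078. Quantile normalization gave 2 enzymes and a median of 0.265. The limma-voom fit of recovered reads called 548 genes and 7 enzymes (all but Acss2, Elovl5 and Fads2). With the length trend removed, 253 genes and 5 enzymes were called at a median of 0.172. With the replicate block 0 genes and 0 enzymes were called, while 2039 genes had an unadjusted p under 0.05, against 2410 without the block; the numbers pair no samples by the labels or by correlation. Leaving out 1 library in turn gave 0 to 83 genes, 0 to 2 enzymes and a median from 0.179 to 0.242, and 1607 to 2478 genes had an unadjusted p under 0.05. The 2 enzymes were called without control replicate 3 (Scd1 and Fads1), where 83 genes were called; such a fit has fewer samples. No enzyme was called lower under any of the 15 alternatives.

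Acss2 changed sign with equal totals (0.0033) and in the fit without VC replicate 2, and without single libraries it ran from -0.0868 to 0.0041. Scap, at -0.0016, changed sign with equal totals (0.067) and in fits without single libraries, where it ran from -0.0658 to 0.0382. With equal totals the median of all genes also moved, from 0.012 to 0.078. The cause of these changes of sign was not tested. Depth limits Acss2, at 91 to 121 recovered reads per library.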
